A study of Gallus gallus with 6 samples.

Results

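The genes that build ribosomes were followed through the first hour after lens wounding. Genes were taken by symbol, not by function, from the deposited count table. They were the POLR1 subunits of RNA polymerase I, the proteins of small nucleolar ribonucleoprotein particles (snoRNPs), and NOP, NOL, UTP, RRP, NOC, GNL, IMP and WDR genes. Most of the latter encode factors that process ribosomal RNA, while NOL4 and NOL4L matched by symbol only. Single genes such as PES1, BOP1, RRS1, BYSL, NCL and LYAR were included. This gave 48 genes of the 17262 in the table, and 47 of them had 10 or more counts in at least 3 libraries. The 47 genes lay on 18 chromosomes and had between 114 and 14454 counts in each library. The remaining gene, NOL4, held 1, 3 and 1 reads at time 0 and 2, 3 and 14 reads at 1 h, and was not tested. NPM1, FBL and POLR1A were not found under these symbols and were not analysed here.

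Ribosomes are assembled in the nucleolus. RNA polymerase I copies the ribosomal DNA into a long precursor, snoRNPs guide the methylation and pseudouridylation of that precursor, and the small subunit processome and the large subunit assembly factors fold and cut it while ribosomal proteins are added. In many cell types the genes of this pathway are transcriptional targets of MYC and are raised when cells start to grow. Ribosomal RNA carries no poly-A tail, so the libraries, which were made from poly-A RNA, measured the messenger RNA of these factors and not their product.

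Lenses were taken from chick embryos (Gallus gallus) at embryonic day 14 and wounded ex vivo in a mock cataract surgery, in which the fiber cell mass is removed and the capsule with its equatorial epithelium and resident immune cells is kept. RNA was sequenced from 3 libraries at time 0 (T0), collected directly after wounding, and from 3 libraries at 1 h post wounding, each being a pool of 6 explants. The 1 h explants had also been flattened and cultured for 1 h in Media 199 with 10% fetal bovine serum, so that wounding, flattening, culture and serum cannot be told apart, and every explant of both time points was wounded. The libraries held between 13733581 and 17673955 counts, and replicates of a time point differed beyond counting error (chi-square divided by its degrees of freedom, 7.96 to 15.1).

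Levels are given as counts per 1000000 counts of the library (CPM) after TMM scaling, as mean ± SD over 3 libraries, and values of single libraries are listed in the order of replicates 1, 2 and 3. A log2 fold change sets 1 h against time 0, with its standard error (SE). A gene was called higher or lower when its adjusted p was under 0.05 in the quasi-likelihood test of edgeR, adjusted by the Benjamini-Hochberg method across the 12391 genes that entered it. Of those genes, 31.8% were called, 19.8% as higher and 12% as lower at 1 h.

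Ribosome biogenesis genes changed little in the first hour, and more of them fell than rose. Of the 47 genes, 13 were called lower (27.7%, against 12% of all genes tested), 2 were called higher (4.26%, against 19.8%), and 32 were not called. The count of lower genes was 8 without time 0 replicate 3 and 8 without 1 h replicate 3, and the count of higher genes was 1 without time 0 replicate 2 or 3 or 1 h replicate 1. At an unadjusted p under 0.05 the edgeR test gave 14 lower and 3 higher genes. The share called in either direction was 31.9%, near the 31.8% of all genes. The median log2 fold change was -0.12, with a range from -0.60 for IMP3 to 0.52 for UTP15, against a median of -0.01 for all genes tested. No member reached an absolute log2 fold change of 1, a size that 7.23% of all genes tested had together with a call, and 8.51% reached 0.5, against 24.3% of all genes. In 14 members every 1 h library lay below every time 0 library (29.8%, against 21.4% of all genes tested), and in 7 every 1 h library lay above (14.9%, against 25.4%). With upper-quartile normalization the median of all genes moved to -0.14 and the median of the members to -0.25, and with library totals the medians were -0.05 and -0.16 (a scaling moves all genes together). The median of the members minus that of all genes was -0.11, and ran from -0.15 to -0.10 when a library was left out. Of all called genes 62.2% were higher with TMM, 52.2% with library totals and 35.9% with upper-quartile normalization, which called 22 members lower and 1 higher.

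**Figure D1:**
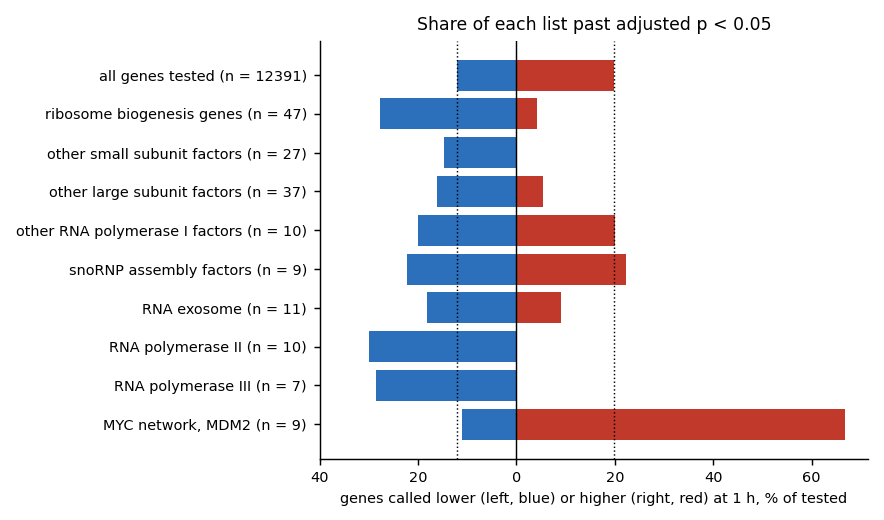
Percent of the tested genes of each list called lower (left, blue) or higher (right, red) at 1 h, with the number tested beside each name; dotted lines mark all genes tested, at 12% and 19.8%. The ribosome biogenesis genes extend further to the left (27.7%) than to the right (4.26%), and the MYC network with MDM2 extends to the right.

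The lens markers gave the setting of these values. The lens epithelium genes were present, PAX6 at 569 to 617 CPM before and 891 to 940 CPM after the hour, CDH1 with at most 9 CPM in any library, while FOXE3 was not analysed here. Of the 7 tested, PAX6 and EPHA2 were called higher and CRYAB and GJA1 lower (log2 fold changes of -0.41 and -0.22), and the summed level was 23000 to 24200 CPM at time 0 and 18500 to 19500 CPM at 1 h. Most of that sum was CRYAB, with 18900 to 20100 CPM at time 0 and 14100 to 15200 CPM at 1 h. CDH1, CDH2 and ITGB1 were not called. Of 12 lens fiber markers tested 10 were called lower and 0 higher (also 0 at an unadjusted p under 0.05 in the edgeR test and 0 with DESeq2), and their summed level was 86300 to 92700 CPM at time 0 and 64500 to 70100 CPM at 1 h. The 13 immune cell markers found summed to 6.09 to 7.62 CPM at time 0 and 7.46 to 9.72 CPM at 1 h, with 0 of 4 tested genes called in the edgeR test, 1 higher at an unadjusted p under 0.05 and 1 higher with limma-voom. The 5 blood cell markers found summed to 29.5 to 31.3 CPM at time 0 and 29.2 to 54.5 CPM at 1 h. Most of the time 0 sum was ALAS2, with 25.1 to 27.3 CPM, while HBA1 had 2.14 to 2.84 CPM. The highest sum was that of 1 h replicate 1, where HBA1 had 20.2 CPM, and HBBR was at 0 in 5 libraries. The 7 pigmented ciliary epithelium markers found summed to 2.28 to 6.74 CPM, and SLC45A2 made up most of it at time 0 (4.57 to 5.24 CPM). The 2 tested, SLC45A2 and PMEL, were not called. TYR and TYRP1 were at 0 in all 1 h libraries, but had only 1, 3 and 2 and 0, 2 and 0 counts at time 0. Beside these counts of called markers, 19.8% of all genes tested were called higher and 12% lower. The part of the falling fiber sum, and of the epithelium sum that CRYAB dominated, in the changes below was not tested. In these bulk samples fewer cells of a type and less RNA per cell cannot be told apart.

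**Figure D2:**
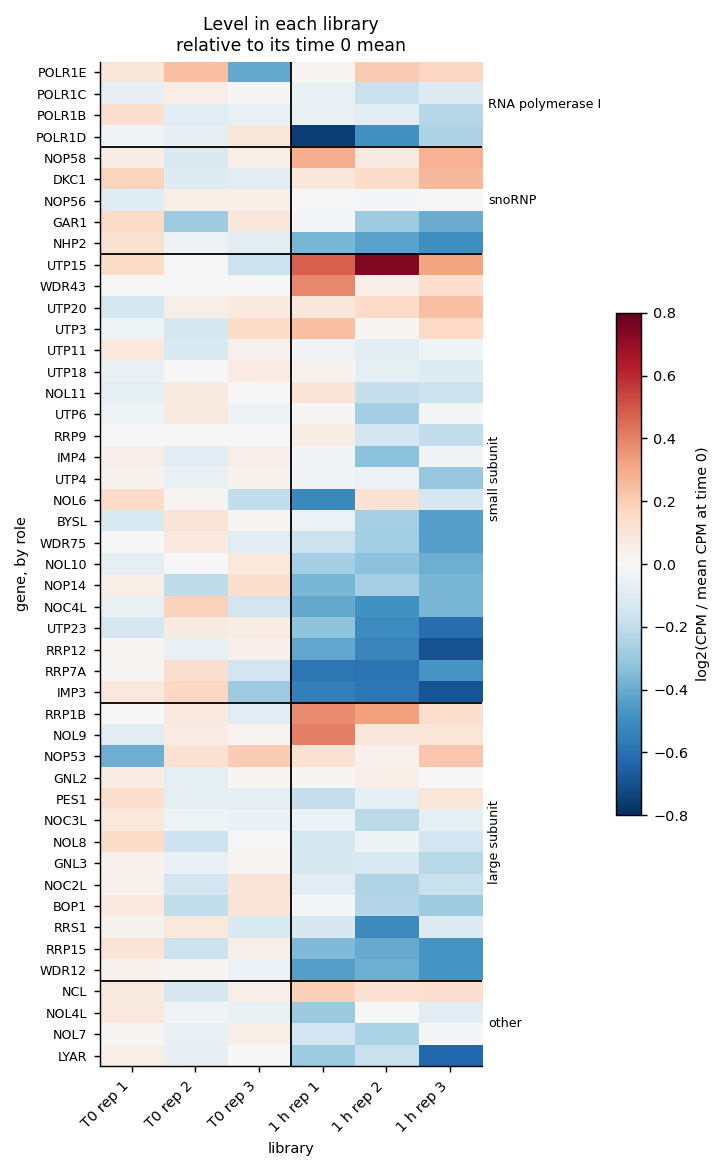
Log2 of the CPM of each gene in each library over its time 0 mean, for 47 genes grouped by role (rows) and 6 libraries (columns); red is above and blue below the time 0 mean. The blue block in the lower rows of the small subunit group holds the 8 genes of that group called lower. WDR12, RRP15, NHP2, POLR1D and LYAR, also called lower, lie in other groups. NOP53 and POLR1E stand out within time 0 by 1 low library each.

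Under the POLR1 symbols RNA polymerase I was represented by 4 subunits, and subunits with other symbols are in the lists further below. Of these 4, 1 was called lower (25%, against 12% of all genes tested) and 0 higher (also 0 at an unadjusted p under 0.05 in the edgeR test and 0 with DESeq2). POLR1D (ENSGALG00000007470, chromosome 4 from 11170881 to 11177013 in the coordinates of the table, whose genome build is not given in the sources used here) encodes a subunit shared with RNA polymerase III. It had 12.3, 12 and 13.4 CPM at time 0 and 7.44, 9 and 10.6 CPM at 1 h. The time points did not overlap, and the lowest library was 1 h replicate 1. The log2 fold change was -0.48 (SE 0.15, adjusted p = 0.0322 in the edgeR test). Of the 6 fits that left out a library, this call was kept only in the one without 1 h replicate 3. The adjusted p of these edgeR fits was 0.0643 without time 0 replicate 1, 0.0552 without replicate 2 and 0.108 without replicate 3. Without 1 h replicate 1 it was 0.0827 and without 1 h replicate 2 it was 0.0678, with log2 fold changes between -0.37 and -0.51 over these 5 fits. It was also lost once the trend with gene length was removed (edgeR, adjusted p = 0.0679).

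The second shared subunit, POLR1C, had 26.4, 28.6 and 27.8 CPM at time 0 and 26.5, 24.4 and 25.7 CPM at 1 h. POLR1B, the second largest subunit and part of the catalytic core, was at 29.7, 25.5 and 25.9 CPM at time 0 and at 26.0, 25.4 and 23.1 CPM at 1 h. The time points overlapped for both genes, and neither log2 fold change passed the test, with 95% intervals from -0.31 to 0.08 for POLR1C and from -0.34 to 0.10 for POLR1B. POLR1C was called lower with upper-quartile normalization (adjusted p = 0.0443 in the edgeR test), a setting that moved the median of all genes to -0.14. POLR1E, a subunit particular to RNA polymerase I, had 39.3, 43.5 and 27.8 CPM at time 0 and 37.2, 42.4 and 41.3 CPM at 1 h. Time 0 replicate 3 stood apart as the lowest library, and without it the log2 fold change of 0.13 (SE 0.14) became -0.04. POLR1E lies on chromosome Z. The other members there, UTP15 and NOL6, also had their lowest time 0 level in replicate 3. Per length, POLR1C was the most abundant of the 4 at time 0, with 21.5 ± 0.89 CPM per kb, and POLR1D, POLR1E and POLR1B followed at 8.25 ± 0.50, 8.16 ± 1.80 and 7.88 ± 0.68 CPM per kb, within their spread of each other.

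The snoRNP proteins held 5 members, with 1 called lower (20%, against 12% of all genes tested) and 0 called higher (1 at an unadjusted p under 0.05 in the edgeR test and 0 with DESeq2). NHP2 (ENSGALG00000033666, chromosome 13 from 10806496 to 10808329), a core protein of the box H/ACA particles that convert uridine to pseudouridine, had 42.4, 37.9 and 36.7 CPM at time 0 and 30.3, 29.0 and 27.8 CPM at 1 h. All 1 h libraries lay below all time 0 libraries. Its log2 fold change was -0.43 (SE 0.09, adjusted p = 0.00337 in the edgeR test). GAR1, a partner of NHP2 in these particles, had a log2 fold change of -0.22, with an interval from -0.53 to 0.08. DKC1, the pseudouridine synthase of the same particles, had 136, 112 and 113 CPM at time 0 and 128, 133 and 144 CPM at 1 h, and the time points overlapped. The log2 fold change of DKC1 was 0.17 (SE 0.09, adjusted p = 0.173 in the edgeR test), and it was called higher without time 0 replicate 1, its highest library at time 0 (log2 fold change 0.26, adjusted p = 0.0389 in that fit). Within each library the log2 ratio of DKC1 to NHP2 went from 1.62 ± 0.06 to 2.22 ± 0.15 without overlap, and that of DKC1 to GAR1 went from 2.48 ± 0.18 to 2.87 ± 0.28 with overlap (SD, n = 3 libraries; no test).

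In the box C/D particles, which guide the methylation of ribosomal RNA, NOP58 and NOP56 form the scaffold. NOP58 had 115, 102 and 114 CPM at time 0 and 135, 116 and 134 CPM at 1 h. All 3 values at 1 h were above those at time 0, with 1 h replicate 2 only just so. The log2 fold change was 0.22 (SE 0.08, adjusted p = 0.0593 in the edgeR test), short of the threshold. NOP58 was called higher without 1 h replicate 2 (adjusted p = 0.0353 in the edgeR test, log2 fold change 0.27) and once the trend with gene length was removed (edgeR, adjusted p = 0.0277). NOP56 had 60.6, 66.9 and 67.2 CPM at time 0 and 65.0, 64.6 and 65.0 CPM at 1 h, and the interval of its log2 fold change ran from -0.16 to 0.16. Its span overlaps a same-strand gene without a symbol by 1014 bases and IDH3B on the opposite strand by 668 bases, so reads of these genes may be split between them. IDH3B was called lower (log2 fold change -0.39, adjusted p = 0.00224 in the edgeR test).

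**Figure D3:**
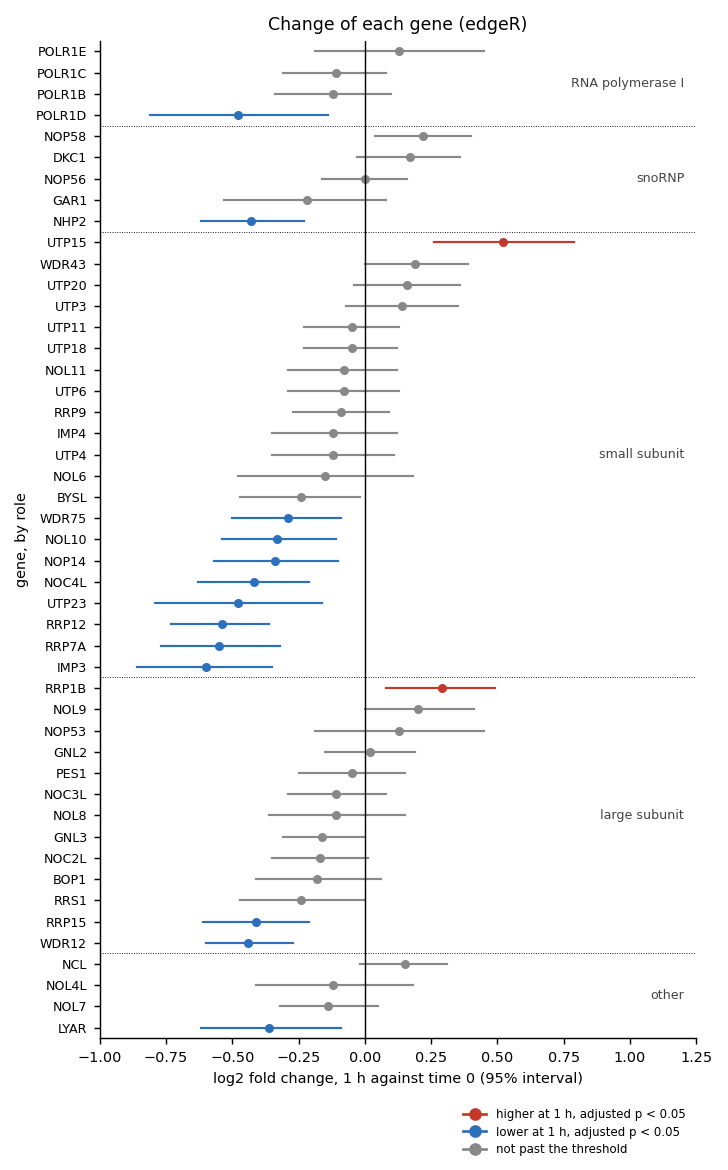
Log2 fold change of each of the 47 genes at 1 h against time 0 (points) with its 95% interval (lines), grouped by role and coloured by the call. The values run from -0.60 (IMP3) to 0.52 (UTP15), and 13 genes are coloured as lower and 2 as higher.

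The small subunit processome was the largest group, with 21 members. Of these, 8 were called lower (38.1%, against 12% of all genes tested) and 1 higher (4.76%, against 19.8%). IMP3 (ENSGALG00000040238, chromosome 3 from 109841102 to 109841659) belongs with IMP4 to the complex that holds the U3 snoRNA on the precursor. It had 46.3, 48.9 and 35.6 CPM at time 0 and 29.9, 29.2 and 27 CPM at 1 h. Time 0 replicate 3 was the nearest to the 1 h libraries, which were close together. IMP3 had the lowest log2 fold change of all members, -0.60 (SE 0.12, adjusted p = 0.00197 in the edgeR test). Its whole span of 558 bases lies within PLA2G7 on the opposite strand, a gene that was also called lower (log2 fold change -0.24, adjusted p = 0.0426 in the edgeR test). Whether counting respected the strand is not given in the sources used here, which leaves the level of IMP3 uncertain. IMP4 did not pass the test, with a log2 fold change of -0.12 and an interval from -0.35 to 0.12.

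RRP7A (ENSGALG00000011866, chromosome 1 from 49200767 to 49204422), a factor of the early pre-40S particle, had 29.5, 32.0 and 26.3 CPM at time 0 and 19.6, 19.4 and 21.1 CPM at 1 h. Its log2 fold change was -0.55 (SE 0.10, adjusted p = 0.00172 in the edgeR test). RRP12 (ENSGALG00000041331, chromosome 6 from 23310320 to 23319634), which takes part in the maturation and export of pre-ribosomes, had 69.6, 66.2 and 70.8 CPM at time 0 and 51.7, 47.7 and 42.5 CPM at 1 h. The gap between the time points was wider than the range within either, and the adjusted p of 0.000469 in the edgeR test was the smallest of the members (log2 fold change -0.54, SE 0.09). The end of RRP12 overlaps the abundant PGAM1 on the opposite strand by 150 bases, and PGAM1 had a log2 fold change of -0.04. NOC4L, a partner of NOP14 in the assembly of the small subunit, had 50.8, 60.3 and 48.0 CPM at time 0 and 39.9, 37.9 and 41.2 CPM at 1 h, with no overlap and a log2 fold change of -0.42 (SE 0.10, adjusted p = 0.00563 in the edgeR test).

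NOP14 itself had 26.5, 22.2 and 27.9 CPM at time 0 and 19.8, 21.2 and 19.8 CPM at 1 h, a log2 fold change of -0.34 (SE 0.11, adjusted p = 0.0351 in the edgeR test). UTP23, a processing factor of the early small subunit particle, was among the least abundant members, with 10.2, 11.8 and 11.7 CPM at time 0 and 9, 7.91 and 7.36 CPM at 1 h. The libraries of the time points did not overlap for either gene, and the log2 fold change of UTP23 was -0.48 (SE 0.14, adjusted p = 0.0244 in the edgeR test). NOL10 and WDR75 were also called lower, with log2 fold changes of -0.33 and -0.29 (SE 0.10 and 0.09). Each of these 4 calls was lost in 4 of the 6 fits that left out a library. NOP14 was lost without time 0 replicate 1 or 3 and without 1 h replicate 1 or 3 (adjusted p = 0.101, 0.139, 0.0584 and 0.0795 in those edgeR fits). UTP23 was lost without time 0 replicate 2 or 3 and without 1 h replicate 2 or 3 (adjusted p = 0.0747, 0.078, 0.0584 and 0.0794 in the edgeR fits). For NOL10 the same 4 libraries gave adjusted p = 0.052, 0.0928, 0.0521 and 0.069 in the edgeR fits. For WDR75 the values were 0.0764 and 0.0996 without time 0 replicate 1 or 2 and 0.0539 and 0.101 without 1 h replicate 2 or 3 (adjusted p in the edgeR fits).

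UTP15 (ENSGALG00000013510, chromosome Z from 24707997 to 24717639) went the other way. It encodes a subunit of the UtpA complex, which binds first to the 5′ end of the precursor and in human cells is also needed for the transcription of ribosomal DNA. UTP15 had 26.9, 24.4 and 21.6 CPM at time 0 and 33.8, 40.6 and 30.3 CPM at 1 h. All 1 h libraries lay above all time 0 libraries, and 1 h replicate 2 was the highest. The other members on chromosome Z, POLR1E and NOL6, shared part of this library order. Within time 0 their lowest library was also replicate 3 (27.8 and 28.2 CPM). Within 1 h their highest was also replicate 2 (42.4 and 35 CPM). Of the pathway genes outside the symbol rule on that chromosome, WDR36, NSA2, BRIX1, RIOK2 and MTREX had the same lowest and highest libraries. TAF1C and RCL1 had the same lowest library at time 0 but another highest library at 1 h. The sex of the pooled embryos is not given in the sources used here, and its part in these levels was not tested. The log2 fold change of UTP15 was 0.52 (SE 0.12, adjusted p = 0.00667 in the edgeR test), the highest of the members. No other gene of that complex among the 47 members was called higher, and the difference from UTP15 was not tested. WDR43 had 62.0, 62.4 and 62.3 CPM at time 0 and 81.3, 64.1 and 68.3 CPM at 1 h, a log2 fold change of 0.19 (adjusted p = 0.121 in the edgeR test), with 1 h replicate 1 the highest library. NOL11 and UTP4 had log2 fold changes of -0.08 and -0.12 without a call, and WDR75 was called lower, as given above. The span of UTP4 overlaps SNTB2 on the same strand by 886 bases, so reads may be split between them.

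The other small subunit members were not called. Of these, UTP20 and UTP3 had log2 fold changes of 0.16 and 0.14. UTP20 turned to -0.07 with the centred gene length correction, and was the longest member, with 8406 bases. UTP11, UTP18, UTP6, RRP9 and NOL6 had values between -0.15 and -0.05, and UTP11 turned to 0.05 with that correction. The span of UTP18 overlaps MBTD1 on the opposite strand by 398 bases, so its level is uncertain. MBTD1 was called higher (log2 fold change 0.36, adjusted p = 0.00246 in the edgeR test). BYSL, needed late in small subunit maturation, had a log2 fold change of -0.24, with an interval from -0.47 to -0.02 and an adjusted p of 0.0937 in the edgeR test. It was called lower without 1 h replicate 1 (log2 fold change -0.37, adjusted p = 0.0132 in that edgeR fit).

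**Figure D4:**
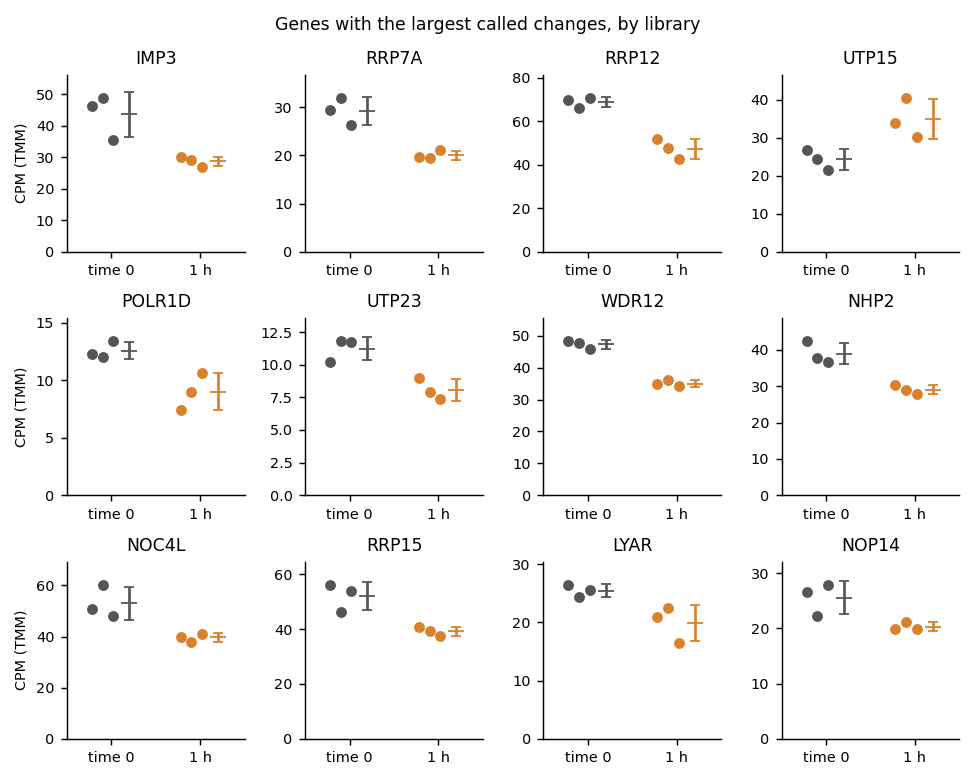
CPM after TMM scaling in each library (points) at time 0 (grey) and 1 h (orange), with mean and SD at the side of each group, for the 12 called genes with the largest absolute log2 fold change and no overlap between time points; axes start at 0. UTP15 is the only one of the 12 that is higher at 1 h.

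Among the 13 large subunit assembly factors, 2 were called lower (15.4%, against 12% of all genes tested) and 1 higher (7.69%, against 19.8%). WDR12, PES1 and BOP1 form the PeBoW complex, which is needed for processing of the large subunit precursor, and only WDR12 passed the test. WDR12 (ENSGALG00000008470, chromosome 7 from 11973780 to 11981643) had 48.3, 47.8 and 45.8 CPM at time 0 and 34.8, 36.1 and 34.1 CPM at 1 h. The replicates of each time point lay close together and far from the other time point, with a log2 fold change of -0.44 (SE 0.08, adjusted p = 0.00106 in the edgeR test). PES1 had 188, 162 and 163 CPM at time 0 and 150, 162 and 183 CPM at 1 h, with overlap and an interval of the log2 fold change from -0.25 to 0.15. BOP1 had 41.1, 33.9 and 41.7 CPM at time 0 and 38.5, 33.0 and 31.9 CPM at 1 h, again with overlap, and an interval from -0.41 to 0.06. The span of BOP1, introns included, shares 9801 bases with HSF1 on the opposite strand. Overlap of exons was not checked, so that the level of BOP1 is uncertain. Within each library the log2 ratio of PES1 to WDR12 was 1.85 ± 0.10 at time 0 and 2.23 ± 0.17 at 1 h, and that of PES1 to BOP1 was 2.14 ± 0.15 and 2.26 ± 0.28 (SD, n = 3 libraries each). For BOP1 to WDR12 the ratio was -0.29 ± 0.19 at time 0 and -0.03 ± 0.15 at 1 h. The ratios to WDR12 had no overlap between the time points, that of BOP1 only just (-0.14 in time 0 replicate 3, -0.13 in 1 h replicate 2). The ratio of PES1 to BOP1 overlapped.

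RRP15 (ENSGALG00000009615, chromosome 3 from 19522587 to 19548144), a factor of the early pre-60S particle, had 56.2, 46.3 and 54.0 CPM at time 0 and 40.8, 39.4 and 37.6 CPM at 1 h. Its log2 fold change was -0.41 (SE 0.09, adjusted p = 0.00455 in the edgeR test), and the time points did not overlap. RRP1B was the second member called higher. It had 28.4, 29.9 and 26.7 CPM at time 0 and 36.9, 35.6 and 31.0 CPM at 1 h, with 1 h replicate 3 the nearest to time 0. Its log2 fold change of 0.29 (SE 0.10, adjusted p = 0.0388 in the edgeR test) was called in only 6 of 17 alternatives. It was lost without any 1 of the time 0 replicates 1, 2 and 3 (adjusted p = 0.0909, 0.0502 and 0.137 in the edgeR fits) and without 1 h replicate 1 or 2 (adjusted p = 0.127 and 0.119 in the edgeR fits). DESeq2's Wald test gave an adjusted p of 0.0964, and the centred gene length correction gave 0.225 in the edgeR fit.

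GNL3, which encodes the nucleolar GTPase nucleostemin, had 66.8, 62.7 and 66.4 CPM at time 0 and 59.8, 60.0 and 56.1 CPM at 1 h. Each 1 h library lay below each time 0 library, without a call, at a log2 fold change of -0.16 (SE 0.07, adjusted p = 0.122 in the edgeR test). NOL9, a kinase that acts on the spacer between the large subunit RNAs, lay above time 0 in all 1 h libraries, with a log2 fold change of 0.20 and an adjusted p of 0.120 in the edgeR test. NOP53 had 108, 154 and 163 CPM at time 0 and 154, 145 and 165 CPM at 1 h. Its whole span of 4276 bases lies within TGFB1 on the same strand, so reads may be split between them and its level is uncertain. Without time 0 replicate 1, its lowest library, the log2 fold change of 0.13 became -0.04. The GTPase GNL2 was at 0.02 on the log2 scale and went below 0 with library totals or upper-quartile normalization. NOC2L, NOC3L, NOL8 and RRS1 had log2 fold changes between -0.24 and -0.11 without a call. NOC2L was called lower without time 0 replicate 2 (log2 fold change -0.24, adjusted p = 0.0491 in that edgeR fit).

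Outside these groups, NCL was by far the most abundant member. NCL (ENSGALG00000032930, chromosome 9 from 15430541 to 15437975) encodes nucleolin, a major nucleolar protein that binds ribosomal RNA precursors. It had 809, 702 and 795 CPM at time 0 and 878, 832 and 844 CPM at 1 h. The time points did not overlap, yet the log2 fold change of 0.15 (SE 0.08, adjusted p = 0.160 in the edgeR test) was not called, with an interval from -0.02 to 0.31. LYAR, a nucleolar protein that acts in pre-ribosomal RNA processing, had 26.5, 24.4 and 25.6 CPM at time 0 and 20.9, 22.5 and 16.5 CPM at 1 h. LYAR was called lower, with a log2 fold change of -0.36 (SE 0.12, adjusted p = 0.0407 in the edgeR test). The lowest library was 1 h replicate 3, and the call was lost without it (log2 fold change -0.26, adjusted p = 0.122 in the edgeR fit) and without any 1 of the time 0 replicates 1, 2 and 3 (adjusted p = 0.112, 0.0626 and 0.0944 in the edgeR fits). NOL7 and NOL4L had log2 fold changes of -0.14 and -0.12, neither of them called.

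The summed level of the 47 members was 3060, 2910 and 3020 CPM at time 0 and 3050, 2890 and 2960 CPM at 1 h, and the time points overlapped. Without NCL the sum was 2250, 2210 and 2220 CPM at time 0 and 2170, 2060 and 2120 CPM at 1 h, with every 1 h library below every time 0 library. NCL made up 24.1% to 26.5% of the summed level at time 0 and 28.5% to 28.8% at 1 h. Per length, the levels at time 0 ran from 3.55 CPM per kb for NOL4L to 299 ± 22.6 CPM per kb for NCL, with a median of 21.5 CPM per kb. After NCL came PES1 with 97.5 ± 8.41, IMP3 with 78.1 ± 12.6, NHP2 with 67.8 ± 5.27, NOP53 with 62.6 ± 13.1 and RRS1 with 61.1 ± 4.43 CPM per kb. From PES1 to RRS1 the ranges of mean ± SD of neighbours overlapped. The levels of IMP3 and NOP53 are uncertain, as their spans lie within other genes. The order of the members changed little by 1 h, where the median was 17.5 CPM per kb and the rank correlation with time 0 over the 47 genes was 0.981. That value is across genes, which are not replicates and share their libraries and lengths.

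**Figure D5:**
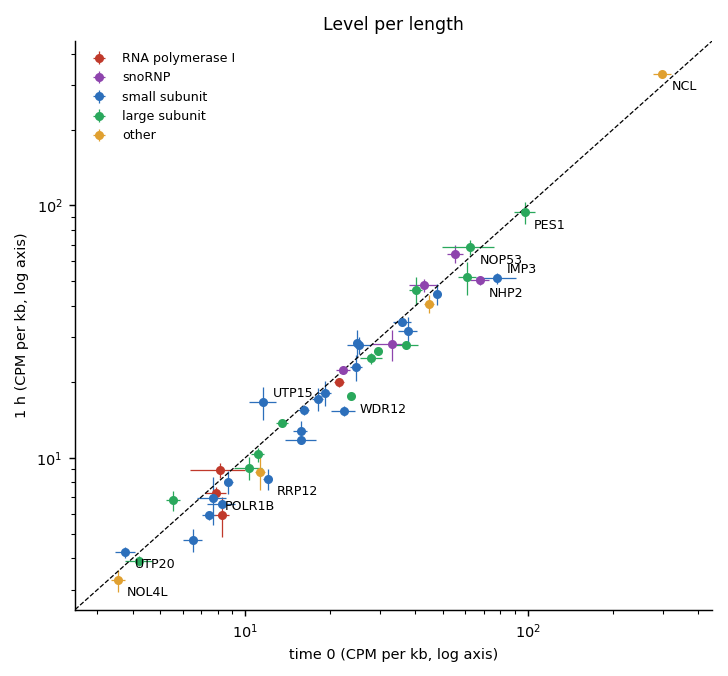
Mean CPM per kb of gene length at time 0 (horizontal, log axis) and 1 h (vertical, log axis) for the 47 genes coloured by role, with SD over 3 libraries as lines and equality dashed. NCL lies highest at 299 and 332 CPM per kb, and most genes lie on or just under the dashed line.

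Genes of the same pathway outside the symbol rule were described in the same fit. Of 27 other small subunit factors tested, 4 were called lower (14.8%, against 12% of all genes tested) and 0 higher (1 at an unadjusted p under 0.05 in the edgeR test and 0 with DESeq2's Wald test). One was DDX47, an RNA helicase, which fell from 34.5 ± 0.17 to 26.1 ± 0.79 CPM (log2 fold change -0.40), and the others were RRP36, NOB1 and DCAF13, with -0.40, -0.40 and -0.24. Of 37 other large subunit factors, 6 were called lower (16.2%, against 12% of all genes tested) and 2 higher (5.41%, against 19.8%). The higher ones were the helicases DDX51 and DDX55, with log2 fold changes of 0.71 and 0.69, and the lowest was NMD3, the export adaptor of the large subunit, with -0.47. The median log2 fold change was -0.12 for the small subunit list and -0.07 for the large subunit list.

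For RNA polymerase I transcription, 10 other factors were tested, with a median log2 fold change of 0.04. Of these, 2 were called higher and 2 lower (20% each, against 19.8% and 12% of all genes tested). The 10 factors included TWISTNB, a further subunit of RNA polymerase I, which was not called (log2 fold change 0.25, adjusted p = 0.355 in the edgeR test). TAF1D, a subunit of the promoter selectivity factor SL1, rose from 18.9 ± 3.06 to 32.6 ± 4.80 CPM (log2 fold change 0.78, SE 0.14, adjusted p = 0.00125 in the edgeR test). TCOF1, which encodes the nucleolar protein treacle, was called higher, with a log2 fold change of 0.27. This call was lost without time 0 replicate 2 or 3 and without 1 h replicate 2 or 3 (adjusted p = 0.0569, 0.0571, 0.0556 and 0.0757 in the edgeR fits). TTF1, the transcription termination factor of RNA polymerase I, fell from 13.9 ± 0.50 to 9.16 ± 0.53 CPM (log2 fold change -0.61, adjusted p = 0.00295 in the edgeR test). UBTF, which binds the ribosomal DNA promoter, fell from 142 ± 6.99 to 113 ± 6.33 CPM (log2 fold change -0.32, adjusted p = 0.00579 in the edgeR test). RNA polymerase II and III subunits gave 3 of 10 and 2 of 7 genes called lower (30% and 28.6%, against 12% of all genes tested). In both lists 0 were called higher (0 and 1 at an unadjusted p under 0.05 in the edgeR test, and 0 with DESeq2). The lower genes were POLR2L, POLR2I and POLR2B (log2 fold changes of -0.39, -0.33 and -0.27) and CRCP and POLR3B (-0.48 and -0.27). POLR2L (adjusted p = 0.00207 in the edgeR test) is a subunit common to RNA polymerases I, II and III. So are POLR2E, POLR2F, POLR2H and POLR2K, which were not called. POLR2I lost its call without time 0 replicate 1 or 1 h replicate 3 (adjusted p = 0.0736 and 0.0719 in the edgeR fits). POLR3B lost it in each fit that left out a library but the one without 1 h replicate 3 (adjusted p = 0.0531 to 0.0988 in the edgeR fits) and with DESeq2 (adjusted p = 0.0761).

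Of 9 snoRNP assembly factors tested 2 were called higher, NAF1 and TGS1, with log2 fold changes of 0.54 and 0.42, and 2 were called lower, SNU13 and ZNHIT3, with -0.32 and -0.34. Each direction made up 22.2%, against 19.8% higher and 12% lower of all genes tested. The call of NAF1 was lost without time 0 replicate 2 or 3 and without 1 h replicate 1 or 3 (adjusted p = 0.0793, 0.0586, 0.0878 and 0.05 in the edgeR fits). That of TGS1 was lost without time 0 replicate 1, 2 or 3 and without 1 h replicate 1 or 3 (adjusted p = 0.0876, 0.0597, 0.0569, 0.0991 and 0.0704 in the edgeR fits). Among 11 genes of the RNA exosome, which trims the precursors, 1 was called higher (9.09%, against 19.8% of all genes tested) and 2 lower (18.2%, against 12%). C1D, an exosome cofactor, rose from 7.14 ± 0.31 to 14.3 ± 1.34 CPM (log2 fold change 1.00), and EXOSC2 was called lower, with a log2 fold change of -0.30. The other lower gene, the exosome nuclease DIS3, had a log2 fold change of -0.28 (adjusted p = 0.0482 in the edgeR test), and its call was lost in each fit that left out a library but the one without 1 h replicate 1 (adjusted p = 0.0897 to 0.13 in the edgeR fits) and with DESeq2 (adjusted p = 0.086). The call of EXOSC2 was lost without time 0 replicate 1 or 2 and without 1 h replicate 2 or 3 (adjusted p = 0.132, 0.0583, 0.086 and 0.0614 in the edgeR fits).

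MYC is known as a driver of ribosome biogenesis, and its own messenger RNA rose between the time points from 23.4 ± 3.69 to 543 ± 62.4 CPM (log2 fold change 4.54, SE 0.13, adjusted p = 5.71e-10 in the edgeR test). MNT, a repressor that competes with MYC for MAX, rose by 2.29 on the log2 scale, and MYCN fell from 149 ± 12.7 to 118 ± 12.3 CPM (log2 fold change -0.34, adjusted p = 0.0140 in the edgeR test), a call lost without time 0 replicate 1 (adjusted p = 0.0615 in that edgeR fit). Of 9 genes of this network and MDM2 tested, 6 were called higher (66.7%, against 19.8% of all genes tested) and 1 lower (11.1%, against 12%). The 47 ribosome biogenesis genes had a median log2 fold change of -0.12 in the same libraries in which MYC had 4.54. A link between these values was not tested, and only messenger RNA was measured.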

How the data were processed

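Gene counts of 6 libraries of poly-A RNA from chick lens explants (3 at time 0, 3 at 1 h) were used as the authors deposited them, as raw counts per gene that are whole numbers and not normalized. Reads were 150 bp paired. The submitters' processing notes name HISAT2 2.0.5, StringTie 1.3.3b, featureCounts 1.5.0-p3 and DESeq2 1.20.0. The genome build and the strand setting of counting are not given in the sources used here. The gene lengths, in bases, are other deposited values and were used for levels per length. The deposited normalized values, FPKM values and columns of fold changes and p-values between the time points were not used.

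Counts were tested in R 4.3.3 with edgeR 4.0.16 (TMM, filterByExpr, robust quasi-likelihood fit, group as the only term), with Benjamini-Hochberg adjustment over 12391 genes and a threshold of 0.05. The script was tested on simulated data. SEs came from the fold change and the F statistic, and intervals are 95%. Alternatives used DESeq2 1.42.0 and limma 3.58.1, other scalings and filters, gene length, the replicate number and leaving out each library, 17 in all. Counting gave 13733581 to 17673955 counts per library.

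Members and lists were chosen with earlier results of these data known. Values in every library were given for the 12 called members with the largest change and no overlap, all POLR1 subunits, NCL, NOP56, NOP58, DKC1, PES1, BOP1, WDR12 and GNL3, and for some others chosen after their values were seen, as were the ratios. In each pathway list the highest 2 and the lowest called genes were named, with MYC, and the other called genes where 5 or fewer were called in a direction. Unnamed rows were given symbols through the RefSeq gene table (assembly GRCg7b, 647 rows), used for names only. The labels call the libraries biological replicates, each a pool of explants, and do not say that pools came from separate cultures, so p-values measure the spread between these libraries. Same-numbered libraries did not deviate together, and no batch is named. No sequences were printed.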

Additional observations from a re-analysis of the deposited data

How the results depend on the processing

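Of the 15 called members, 8 kept their direction and call in all 17 alternatives (IMP3, RRP7A, RRP12, NHP2, WDR12, NOC4L, RRP15 and UTP15), and 7 lost the call at least once. For UTP15 the library order that it shared in part with other chromosome Z genes remains a limit. Of the 32 others, 11 passed in at least 1 alternative and 21 in none. Members called lower, 13, became 22 with upper-quartile normalization, 0 when a log2 change of 1 or more in size was also required (the fold limit), and 8 to 12 when a library was left out (8 without time 0 replicate 3 or without 1 h replicate 3). Members called higher, 2, became 1 with library totals, upper-quartile normalization, DESeq2 or no filter on low counts, 0 with the fold limit, and 1 to 2 when a library was left out. POLR1 subunits called lower, 1, became 2 with upper-quartile normalization, 0 with gene length corrected (block or no block) or with the fold limit, and 0 to 1 when a library was left out. Pathway list genes, here with RNA polymerases II and III, the MYC network and MDM2, went from 13 higher to 4 with the fold limit and 9 to 12 without a library. MYC, MNT and MYCL were among those 4. The lower ones went from 22 to 48 with upper-quartile normalization, 0 with the fold limit and 14 to 24 without a library. Without the polymerase II and III lists and the MYC network with MDM2, 94 pathway genes were tested. Of these, 7 were called higher (7.45%, against 19.8% of all genes tested) and 16 lower (17%, against 12%). Over all genes, 2450 higher became 800 with the fold limit and 1965 to 2300 without a library, and 1488 lower became 3400 with upper-quartile normalization, 96 with the fold limit and 1035 to 1432 without a library. Of the 10 most abundant members per length, 6 were also among the highest 10 by CPM not divided by length.

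Directions that turned belonged to genes that were not called. With gene length corrected, first alone and then with the block, UTP20 gave -0.07 and -0.06, UTP11 gave 0.05 and 0.05, PES1 gave 0.01 and 0.01, and GNL2 gave -0.02 and -0.02. GNL2 also gave -0.03 with library totals, -0.11 with upper-quartile normalization, 0.00 with no filter, -0.02 without time 0 replicate 2 and -0.01 without 1 h replicate 2. NOP53 gave -0.01 and POLR1E 0.00 with upper-quartile normalization, and both gave -0.04 without 1 time 0 library (replicate 1 and replicate 3). PES1 gave 0.02 without time 0 replicate 1. NOP56 gave 0.00 with limma-voom, 0.00 with the block, and 0.02 without time 0 replicate 2 or 3. Over the fits that left out a library, NOP53 ran from -0.04 to 0.24, POLR1E from -0.04 to 0.27, PES1 from -0.15 to 0.02 and NOP56 from -0.05 to 0.02. The causes were not tested.

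The replicate numbers are shared between time points, but same-numbered libraries had correlations of -0.0764, 0.00466 and -0.0407 in their deviations. No shared effect of the numbers was seen, which cannot exclude that same-numbered pools came from one experiment. With the replicate block, 12 members were lower and 3 higher, NOP58 being called higher (edgeR, adjusted p = 0.0408, and 0.022 with gene length corrected as well) and NOP14 not called (adjusted p = 0.0548), and 21 and 13 pathway genes were lower and higher. POLR3B and DIS3 were not called with the block (edgeR, adjusted p = 0.0567 and 0.0609).

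The 3 libraries per time point and the unknown strand of counting limit these values. Overlaps with other genes were taken between whole spans, introns included, and whether exons overlap was not checked. PES1, UTP11 and GNL2 also overlap a gene on the opposite strand, by 652, 1530 and 409 bases. At least 10 counts in 3 libraries were required, and each member had 114 or more, so counting error bears most on the least abundant ones, such as POLR1D and UTP23.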

Other observations

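Introns of some ribosome biogenesis genes hold small nucleolar RNA genes. Among the members, 6 held a snoRNA gene on the same strand within their span, namely NOP58, WDR43, DKC1, NCL, GNL3 and NOP56. None of these 6 was called in either direction in the edgeR test, and their median log2 fold change was 0.16, with 4 values above 0. In the 17 alternatives NOP58 was called higher in 4, DKC1 higher in 1 and GNL3 lower in 1. The other 41 members had 13 genes called lower and 2 higher and a median of -0.12. Of 69 other tested genes that held a snoRNA gene, 11 were called higher and 8 lower, with a median of -0.02. Of all genes tested, 19.8% were called higher and 12% lower. The grouping was chosen after the values were seen and is given as a description.

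Rows without a symbol in the table included 3 that fit the symbol rule by their RefSeq name. RRP36 is the same gene already counted above among the other small subunit factors called lower. It went from 54.8 ± 6.72 to 41.5 ± 1.72 CPM (log2 fold change -0.40, SE 0.09, adjusted p = 0.00724 in the edgeR test). NOP16 and NOL12 had log2 fold changes of -0.21 and -0.25 and were not called (adjusted p = 0.0769 and 0.171 in the edgeR test). In all 3 genes every 1 h library lay below every time 0 library, as in 21.4% of all genes tested.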
